A study of Mus musculus with 8 samples.

Results

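A set of 9 genes that mark the medium spiny neurons of the striatum were followed across the 8 arrays of the series. They are *Drd1a*, *Drd2*, *Adora2a*, *Tac1*, *Pdyn*, *Ppp1r1b*, *Rgs9*, *Rasd2* and *Gng7*, and every probe that the array design names for one of these 9 genes was taken, which gave 14 probes of 41174 on the array. Of the genes, 5 had 1 probe, *Drd2*, *Adora2a* and *Gng7* had 2 and *Tac1* had 3. All 9 symbols were found in the RefSeq gene table, where *Drd1a* is now *Drd1*.

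The mice were C57BL/6J males of 8 to 12 weeks. They had a sham operation or permanent occlusion of the middle cerebral artery (PMCAO, by a filament inside the vessel), and PMCAO mice of neurological grade 1 or 2 were used. Each group then received an injection into the cerebral ventricle, either 1 pmol of the neuropeptide PACAP38 in 1 μl or 0.9% saline, and the right, ipsilateral hemisphere was taken at 6 h or 24 h. Olfactory bulb and cerebellum were removed according to the study's methods. Each of the 8 groups (sham or PMCAO, saline or PACAP38, 6 h or 24 h) was 1 pool of RNA from 3 mice, so a group has 1 sample and no error between mice.

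Each two-colour array carried the saline pool and the PACAP38 pool of one operation and time, and a second array carried the same RNA with the dyes exchanged. The array with PACAP38 in Cy5 is called the label 1 array here, and its dye swap the label 2 array. Sham and PMCAO pools were never on one array. They were compared through the same dye on 2 arrays of one slide, after the log2 signal of each channel had been set against its 75th percentile, and the 2 dyes were averaged. This gave 4 pairs of pools, the saline pair and the PACAP38 pair at each time.

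Medium spiny neurons are the projection neurons of the striatum and use GABA as transmitter. Those of the direct pathway carry the dopamine D1 receptor and make substance P and dynorphin, and those of the indirect pathway carry the dopamine D2 receptor and the adenosine A2a receptor. Both kinds signal through cyclic AMP and the phosphoprotein DARPP-32, and the striatum lies within the territory of the middle cerebral artery. A hemisphere holds many other regions, so in this tissue fewer medium spiny neurons and less RNA per neuron cannot be told apart.

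The probes are 60-base oligonucleotides. The coding probes of the 4 genes with several probes are shown because probes of one gene did not always give the same value. They are written in lower case, 5′ to 3′, with no part marked, and the positions are those of the mm7 build in the array files.
*Drd2* (chr9:49382447-49382506, plus strand, bases of the coding exon that holds the last membrane-spanning stretch of the receptor): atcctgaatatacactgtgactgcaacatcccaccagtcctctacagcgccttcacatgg
*Adora2a* (chr10:74988878-74988937, plus strand, coding bases): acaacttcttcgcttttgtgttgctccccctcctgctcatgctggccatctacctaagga
*Tac1* (chr6:7510608-7512022, plus strand, across an exon junction, with the bases that encode neurokinin A): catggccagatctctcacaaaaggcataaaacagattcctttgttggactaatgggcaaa
*Gng7* (chr10:80741300-80742526, minus strand, across an exon junction): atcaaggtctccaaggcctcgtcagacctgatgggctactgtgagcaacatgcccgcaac

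For *Tac1* the printed probe is the brightest of its 3, and for the other 3 genes the printed probe is the dimmer of 2, called the second probe from here. Of the 14 probes, 12 were well above background in every pool. The remaining 2 *Tac1* probes were not, apart from 1 dye of the sham pools at 6 h for one of them, and no direction is read from them. No member spot was saturated.

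The arrays of 6 h need a caution before any value. On the label 2 sham array, 10.7% of the spots were marked as outliers, against 0.323% to 3.09% on the other 7 arrays. Over all probes, the differences between PMCAO and sham had an interquartile range of 1.54 to 1.66 on the label 2 arrays at 6 h. It was 0.58 to 0.65 on the label 1 arrays at 6 h and 0.30 to 0.46 at 24 h. The saline pair and the PACAP38 pair of one time also lie on the same 4 arrays, so that an error of an array enters both pairs. An error shared in this way makes the p-values of the fit on pairs too small. The same 2 pairs, which differ in treatment, serve as the replicates of a time. A difference between saline and PACAP38 thus enters the spread and acts the other way on the p-values. Each call is given again with the pair of arrays as a random block.

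At 24 h the receptor genes *Drd1a*, *Drd2* and *Adora2a* had their lowest level in the PMCAO pool that received saline. So had the brightest probes of *Tac1*, *Rgs9*, *Rasd2* and *Gng7*, while those of *Pdyn* and *Ppp1r1b* had not. In the fit on pairs none of the 14 probes passed, and 2.06% of the 40508 probes tested did (limma, adjusted p below 0.05). Lower values stood in all 4 channel comparisons (2 pairs, 2 dyes) for 9 of the 14 probes, which belong to *Drd1a*, *Drd2*, *Adora2a*, *Tac1*, *Rgs9* and *Gng7*. Over all probes this share was 22.1%, and 2 probes, both the dim *Tac1* probes, were above 0 in all 4 against 25% of all probes. The smallest adjusted p of a member was 0.146, and 8 of the 14 had an unadjusted p below 0.05. Normexp, loess and Aquantile called 2 members, where 6.43% of all probes were called. The label number as a replicate block called 3 of the 10 that could be fitted, where 10.7% of all probes were called. The 24 h arrays alone called 6 of the 14, where 16.8% of all probes were called, with channels of one pair taken as separate, so that the p-values are too small. Of these 6, 5 were lower, and the other was a dim *Tac1* probe, called higher, whose direction cannot be read. With the array block none of 10 was called, where 0.0747% of all probes were. That block took 1 correlation (0.596) and 1 spread from the arrays of both times. At 24 h alone the array pair correlation was -0.0847. The fit on pairs also took 1 spread for each probe from the pairs of both times. Its SE and p at 24 h therefore rest on the arrays of 6 h as well.

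*Drd1a*, the D1 receptor, had log2 levels of 0.20 and 0.23 in the sham pools with saline and PACAP38 at 24 h. The PMCAO pools had -0.58 with saline and -0.09 with PACAP38. Both PMCAO pools were below both sham pools, and the difference over the 2 pairs was -0.55 ± 0.15 (SE, n = 2 pairs, adjusted p = 0.148, limma).

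*Drd2*, the D2 receptor of the indirect pathway, had levels of -0.08 and -0.04 in the sham pools and of -1.04 (saline) and -0.42 (PACAP38) in the PMCAO pools. Its second probe gave -2.17 and -2.03 in sham and -2.91 and -2.30 in PMCAO. The 2 probes thus placed the 4 pools alike, with differences of -0.97 and -0.74 in the saline pair and of -0.38 and -0.26 in the PACAP38 pair.

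*Adora2a*, the A2a receptor, had levels of 1.39 and 1.07 in the sham pools and of 0.21 (saline) and 0.78 (PACAP38) in the PMCAO pools. The saline pair differed by -1.18, which is 0.441-fold and the lowest value of any member at 24 h. The second probe gave -0.49 in the saline pair and -0.38 in the PACAP38 pair, and its values depended on the array: they were -0.08 and -0.04 on the label 1 arrays and -0.91 and -0.72 on the label 2 arrays.

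Among the peptide precursors, *Tac1*, which encodes substance P, had levels of 2.55 and 2.61 in the sham pools and of 2.07 (saline) and 2.37 (PACAP38) in the PMCAO pools. *Pdyn*, the precursor of dynorphin, had 4.15 and 4.05 in sham and 4.23 (saline) and 3.75 (PACAP38) in PMCAO. Its lowest pool was thus the PMCAO pool with PACAP38, and the sham and PMCAO pools overlapped.

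The signalling genes did not share one pattern. *Rgs9*, which speeds the shut-off of G proteins in these neurons, had 1.80 and 1.74 in sham and 1.20 (saline) and 1.39 (PACAP38) in PMCAO. *Gng7*, the gamma subunit that works with the olfactory-type G protein of the striatum, had 0.56 and 0.53 in sham and 0.12 (saline) and 0.42 (PACAP38) in PMCAO. Its second probe differed by -0.44 in the saline pair and -0.37 in the PACAP38 pair.

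*Rasd2*, which encodes the small G protein Rhes, had -0.60 and -0.65 in sham and -0.90 (saline) and -0.57 (PACAP38) in PMCAO, so that these pools overlapped. *Ppp1r1b*, which encodes DARPP-32, had 0.11 and 0.16 in sham and 0.24 (saline) and 0.35 (PACAP38) in PMCAO. It was the one gene whose brightest probe had both PMCAO pools above both sham pools.

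**Figure D1:**
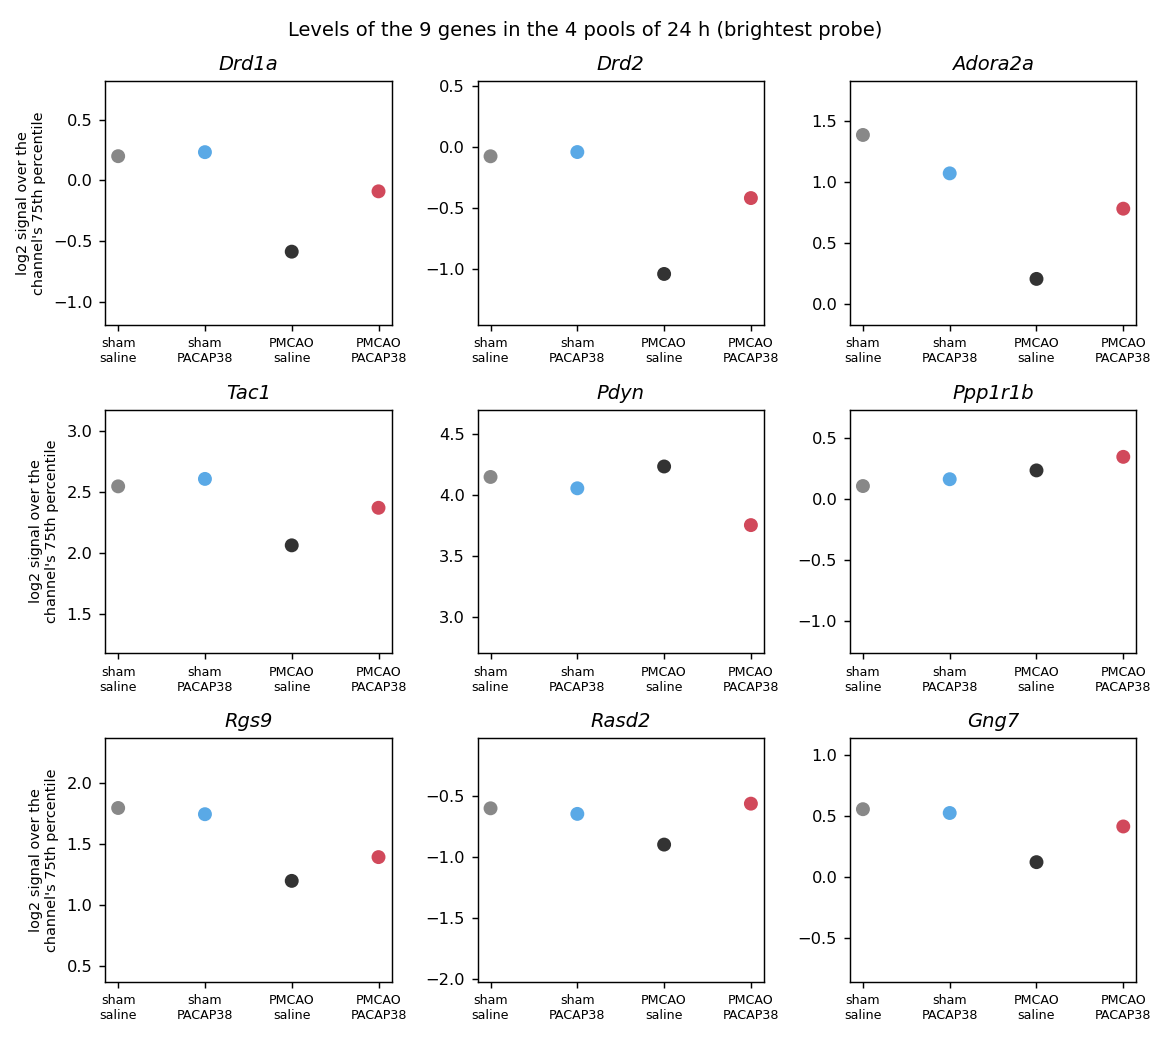
Log2 signal over the 75th percentile of the channel (y axis, each panel spanning the same range of log2 units) for the brightest probe of each gene in the 4 pools of 24 h (x axis); a point is the mean of 2 dyes of 1 pool. Drd1a stands at 0.20 and 0.23 in the sham pools and at -0.58 and -0.09 in the PMCAO pools.

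Counted by the folds the study used, 9 of the 14 probes were below 0.75-fold in the saline pair at 24 h, against 13.3% of all probes, and none was above 1.5-fold (9.56% of all probes). In the PACAP38 pair none of the 14 was below 0.75-fold (8.19% of all probes) or above 1.5-fold (6.39%). The median over the 14 probes was -0.46 in the saline pair and -0.28 in the PACAP38 pair, and the medians of all probes were 0.02 and 0.03. With median scaling of each channel 4 of the 14 were below 0.75-fold in the PACAP38 pair, and with the Cy3 channels alone 3 were. With 1 pool in each group these counts describe these pools and carry no test.

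Markers of other brain regions also differed between these pools, some of them opposite in direction to the members. In the saline pair at 24 h, 4 of the 5 olfactory bulb genes on the array were above 1.5-fold, with a median difference of 2.33, and none was below 0.75-fold. Their summed log2 level was 1.18 in the PMCAO pool with saline and between -1.47 and -0.73 in the other 3 pools of 24 h. The brightest of them, *Doc2g*, *S100a5* and *Tbx21*, differed by 1.61, 3.83 and 2.54 in the saline pair and by -0.16, -2.42 and -0.22 in the PACAP38 pair, while *Omp* and *Eomes* were not above background in every pool.

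Of the 7 midbrain and raphe genes, 5 were above 1.5-fold in the saline pair, with a median of 0.71. Their summed level was 3.59 in the PMCAO pool with saline and between 2.77 and 3.18 in the other 3. Of the 12 genes of cortical and hippocampal excitatory neurons, 5 were below 0.75-fold in the saline pair and 1 in the PACAP38 pair, with medians of -0.30 and -0.13. The 10 pan-neuronal genes had medians of -0.07 in both pairs, with 1 gene below 0.75-fold in the saline pair. Of the 8 thalamic genes 1 was below 0.75-fold in the saline pair and 2 in the PACAP38 pair, with medians of -0.20 and -0.36. The 8 hypothalamic genes had medians of 0.14 and -0.05, with none past either fold in the saline pair. Of the 6 cerebellar genes 3 were below 0.75-fold in the saline pair and 2 in the PACAP38 pair, with medians of -0.43 and -0.24. Only 4 of the 6 were above background in every pool. *Cbln3*, below in both pairs, and *Gabra6*, below in the PACAP38 pair, were not. *Calb1*, below in the saline pair, is also on the thalamic list. Of the 11 interneuron genes 3 were below and 1 above 1.5-fold in the saline pair, and 1 was below and 1 above in the PACAP38 pair, with medians of -0.13 and -0.17. The gene above in both pairs, *Chat*, was not above background in every pool. Among non-neuronal lists, 3 of the 8 astrocyte genes were above 1.5-fold in each pair, and of the 8 genes of microglia and macrophages 4 were below 0.75-fold and 2 above 1.5-fold in the saline pair. Of the 6 endothelial genes 3 were above and 2 below there, and of the 7 oligodendrocyte genes none was past either fold. The region markers thus differed between these pools, and their part in the members' values was not tested. The marker lists also differed at 6 h, on arrays that carry the caution above. In the saline pair of 6 h their medians ran from -0.599 (thalamus) to 1.365 (olfactory bulb). In the PACAP38 pair of 6 h they ran from -0.171 (cortical and hippocampal excitatory neurons) to 0.632 (hypothalamus).

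**Figure D2:**
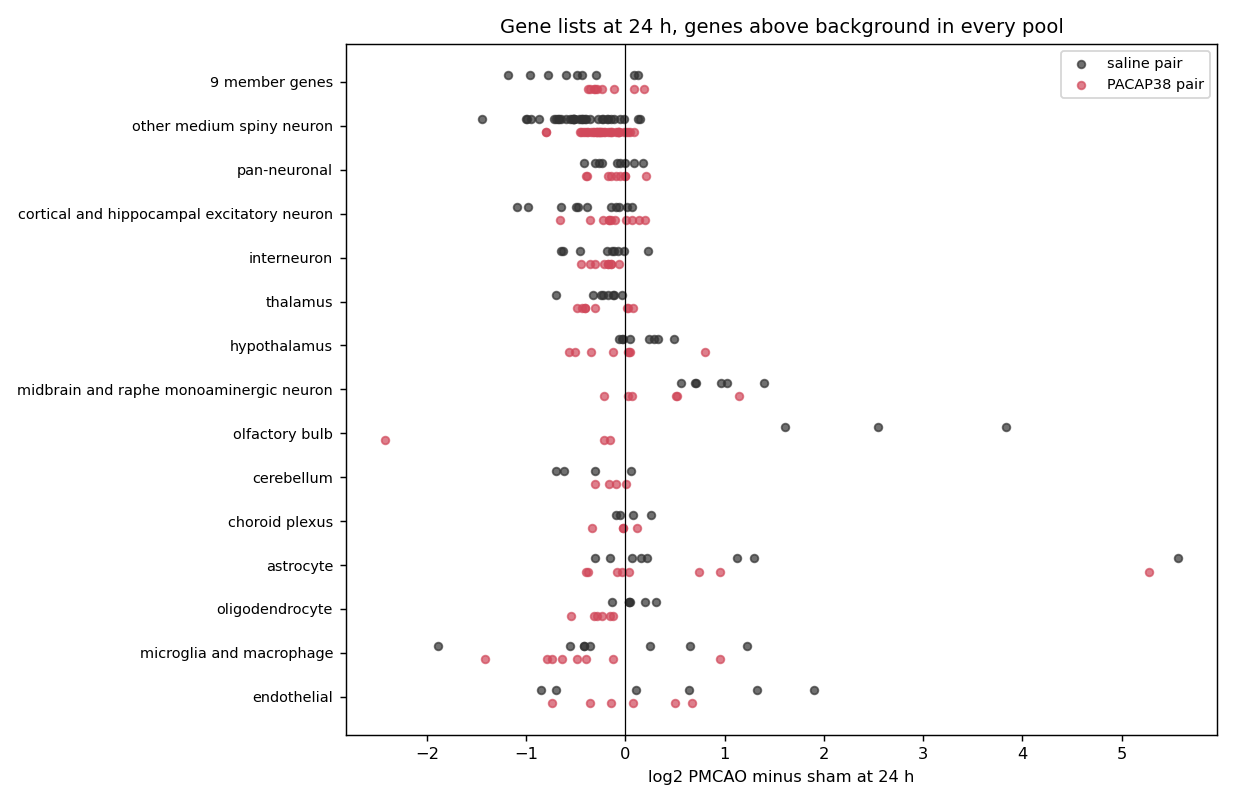
Log2 PMCAO minus sham at 24 h (x axis) for the 9 genes and for 14 lists of marker genes (y axis); a point is the brightest probe of 1 gene, in grey for the saline pair and red for the PACAP38 pair, and genes not above background in every pool are left out. The olfactory bulb genes shown lie between 1.61 and 3.83 in the saline pair and between -2.42 and -0.16 in the PACAP38 pair.

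At 6 h the values of the members depended on the arrays used. In the fit on pairs 5 of the 14 probes passed, 3 higher and 2 lower in PMCAO, where 48.6% of all probes passed. The medians of all probes were 0.20 and 0.25 in the 2 pairs, so values near that shift differ little from the bulk of the array. With the pair of arrays as a random block 0.354% of all probes passed and none of the 10 member probes that could be fitted, with 2 of them at an unadjusted p below 0.05 and a smallest adjusted p of 0.0844. The 4 probes that could not be fitted (*Tac1*, *Pdyn*, *Rgs9* and *Rasd2*) had an outlier spot on 1 array, so 1 dye stands for each of their pairs. Without the label 2 arrays 0.211% of all probes and no member passed, and 4 members had an unadjusted p below 0.05. On the label 1 arrays alone 7 of the 8 brightest probes that could be fitted were below 0, while the medians of all probes were 0.15 in the saline pair and 0.11 in the PACAP38 pair. The lowest were *Drd1a* (-0.63), *Rasd2* (-0.61), *Adora2a* (-0.50) and *Drd2* (-0.48), and *Rgs9* was the one above 0, at 0.03. The second probes on these arrays gave 0.20 for *Adora2a*, 0.43 for *Gng7* and -0.28 for *Drd2*. The share of all probes below 0 there was not computed, so the count of brightest probes is a description only.

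*Ppp1r1b* shows how far the arrays disagreed. Its channel differences at 6 h were 0.43 (saline) and -0.68 (PACAP38) on the label 1 arrays and 2.98 (saline) and 2.41 (PACAP38) on the label 2 arrays. The fit on pairs gave 1.28 ± 0.22 (SE, n = 2 pairs, adjusted p = 0.0126, limma), and without the label 2 arrays it gave -0.13 ± 0.30 (adjusted p = 0.796). The value with the array block had an adjusted p of 0.172.

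*Drd1a* had channel differences of -0.58 and -0.68 on the label 1 arrays and of 0.82 and 0.90 on the label 2 arrays. Its mean of 0.11 therefore averaged 2 values of opposite sign, and the value without the label 2 arrays was -0.63 (adjusted p = 0.13, limma).

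The second probe of *Adora2a* was called higher at 6 h, by 0.84 ± 0.12 (adjusted p = 0.00788, limma). The brighter probe of the same gene gave -0.21 ± 0.25 (adjusted p = 0.506), so the 2 probes had opposite signs. Without the label 2 arrays the second probe gave 0.20 (adjusted p = 0.423), and with the array block its adjusted p was 0.122.

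The second probe of *Gng7* was called higher by 0.71 ± 0.11 (adjusted p = 0.00936, limma), with channel values of 0.40, 0.46, 1.11 and 0.87. It was the one called probe above 0 in all 4 channels. Its adjusted p was 0.0844 with the array block and 0.125 without the label 2 arrays, where the value was 0.43. The brighter *Gng7* probe gave 0.25 ± 0.14 (adjusted p = 0.209).

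*Rasd2* was called lower at 6 h, by -0.61 ± 0.15 (adjusted p = 0.0295, limma), from the label 1 arrays alone, with -0.48 in the saline pair and -0.74 in the PACAP38 pair. Without the label 2 arrays the value stayed at -0.61 and its adjusted p was 0.133. The fifth call was one of the dim *Tac1* probes, which has no firm level.

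*Drd2* had 6 h differences of -0.19 in the saline pair and -0.72 in the PACAP38 pair, and its second probe 0.30 and -0.09. *Tac1* had -0.32 and -0.24, and *Pdyn* -0.38 and -0.49, each from 1 dye. *Rgs9* had -0.14 and 0.21, also from 1 dye. None of these passed.

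**Figure D3:**
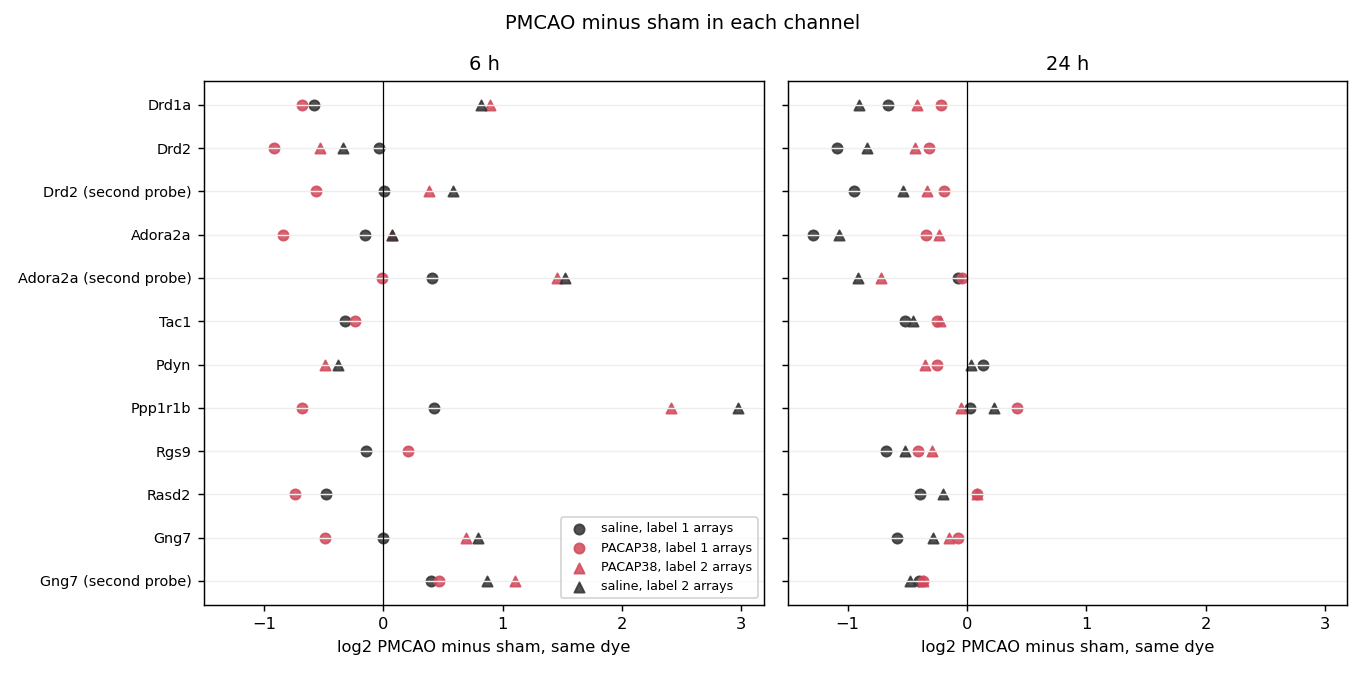
Log2 PMCAO minus sham in each channel (x axis) for the 12 member probes above background (y axis) at 6 h (left) and 24 h (right); circles are label 1 arrays, triangles label 2 arrays, grey the saline pools and red the PACAP38 pools, and spots marked as outliers are left out. Ppp1r1b at 6 h lies at -0.68 and 0.43 on the label 1 arrays and at 2.41 and 2.98 on the label 2 arrays.

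The difference between the 2 times was called for 3 of the 14 probes in the fit on pairs, where 25.7% of all probes were called. They were the second probes of *Adora2a* and *Gng7* and one of the dim *Tac1* probes. With the array block 0.00277% of all probes and no member was called, and 2 members had an unadjusted p below 0.05. At 6 h and 24 h the arrays lay on different slides, so slide and time cannot be told apart.

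PACAP38 was compared with saline on the same arrays, with no step between arrays. In the mean of the 4 comparisons none of the 40668 probes passed (0%, limma), 2037 had an unadjusted p below 0.05, and 1 of the 14 members, the second probe of *Gng7*, was among them at 0.13 ± 0.04 (SE, n = 4 comparisons, adjusted p = 0.872). In the difference between PMCAO and sham none passed either (0%), with 2496 probes and no member at an unadjusted p below 0.05. The smallest adjusted p of a member was 0.79.

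The counts past a fold differed between the single comparisons when the 2 arrays were averaged. In PMCAO at 24 h 3 of the 14 probes were above 1.5-fold with PACAP38, both *Drd2* probes and the brighter *Adora2a* probe, against 2.99% of all probes, and 1, *Pdyn*, was below 0.75-fold (8.18% of all probes). In sham at 24 h none was above 1.5-fold (1.75%) or below 0.75-fold (3.87%). In sham at 6 h none was above (3.65%) or below (7.19%), and in PMCAO at 6 h none was above (5.36%) and 1, *Ppp1r1b*, was below (6.79%). On single arrays of 24 h, the sham comparison had 4 probes past either fold (label 1 array) and 3 (label 2 array), and the PMCAO comparison had 2 and 6.

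*Drd2* in PMCAO at 24 h had log2 ratios of PACAP38 over saline of 0.46 and 0.81 on the 2 arrays, a mean of 1.55-fold. Its second probe had 0.14 and 1.102, or 1.54-fold. *Adora2a* had 0.21 and 0.97, or 1.51-fold, while its second probe had 0.11 and 0.08. The brighter *Adora2a* probe and the second *Drd2* probe thus differed between the 2 dye orientations by more than their mean. After normexp background correction and loess, 1 of the 14 probes was past either fold in PMCAO at 24 h, in place of 4.

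*Drd1a* had 0.47 and 0.55 in PMCAO at 24 h, or 1.42-fold. In sham at 24 h its ratios were 0.01 and 0.06. *Tac1* had 0.27 and 0.38, *Rasd2* 0.29 and 0.41 and *Rgs9* 0.15 and 0.27 in PMCAO at 24 h. *Pdyn* had -0.43 and -0.50 there, opposite to the other peptide precursor.

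*Ppp1r1b* had -0.65 and 0.90 in PMCAO and -1.06 and 1.17 in sham at 24 h, a change of sign with the dyes that leaves no direction. Of the 12 probes above background, 10 were above 0 on both arrays in PMCAO at 24 h, against 24.9% of all probes. In sham at 24 h 1 of the 12 was, against 10.7% of all probes.

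**Figure D4:**
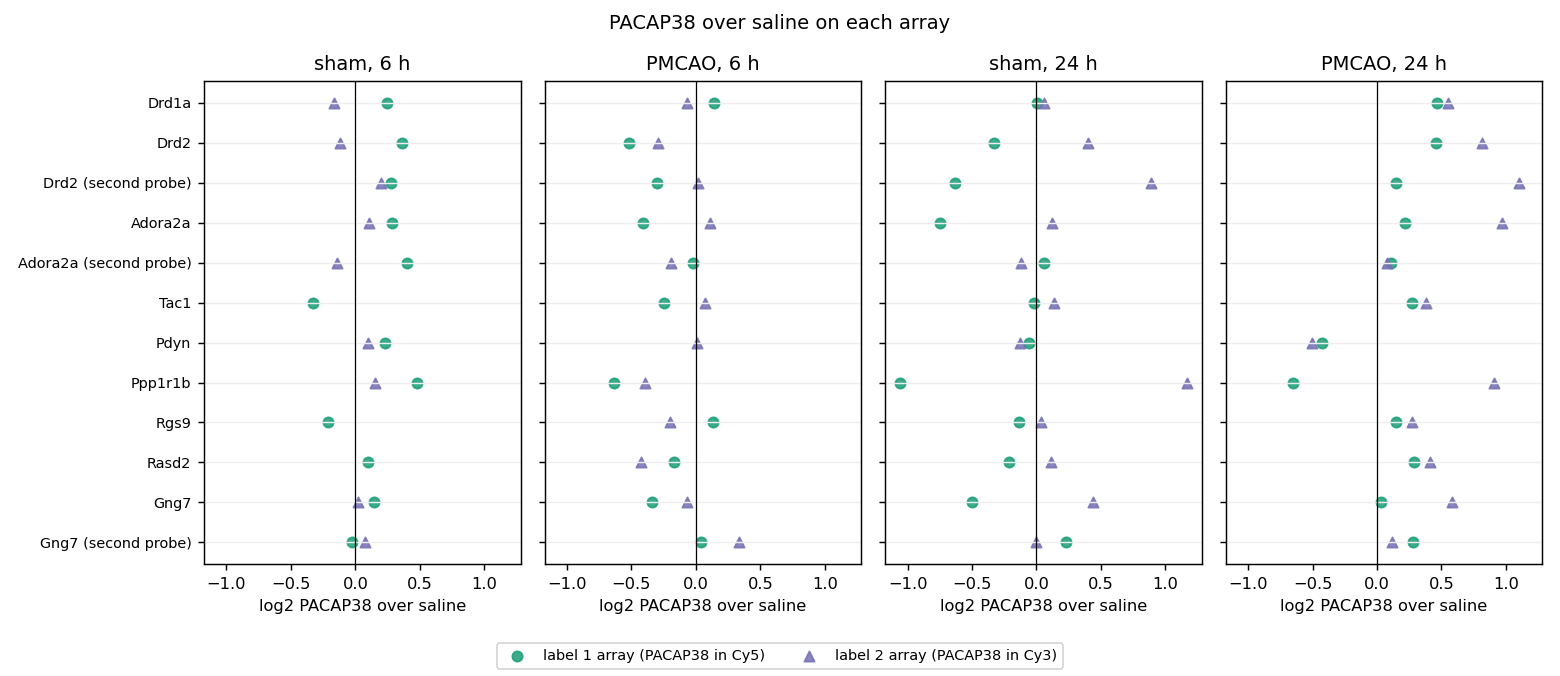
Log2 PACAP38 over saline (x axis) on each array for the 12 member probes above background (y axis) in the 4 comparisons; circles are label 1 arrays and triangles label 2 arrays. In PMCAO at 24 h Drd1a lies at 0.47 and 0.55, and Pdyn at -0.43 and -0.50.

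These ratios and the PMCAO differences at 24 h use the same PMCAO pool with saline, so they are not independent of each other. The region markers moved in this comparison too. All 5 olfactory bulb genes were below 0.75-fold with PACAP38 in PMCAO at 24 h, with a median log2 ratio of -2.64, as were 5 of the 7 midbrain and raphe genes (median -0.69) and 6 of the 8 hypothalamic genes (median -0.44). Among non-neuronal lists 4 of the 6 endothelial genes (median -0.45), 2 of the 7 oligodendrocyte genes (median -0.34) and 1 of the 4 choroid plexus genes (median -0.33) were below 0.75-fold there. Their part in the members' ratios was not tested.

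A list of 46 symbols for other genes of medium spiny neurons gave 39 genes on the array, of which 35 were above background in every pool. In the saline pair at 24 h, 22 of the 39 were below 0.75-fold (13.3% of all probes) and 1 was above 1.5-fold (9.56%). In the PACAP38 pair 5 were below (8.19% of all probes) and 1 above (6.39%). The gene above 1.5-fold was *Oprd1* in the saline pair and *Drd3* in the PACAP38 pair, neither above background in every pool. The medians were -0.45 and -0.21. With PACAP38 in PMCAO at 24 h, 6 of the 39 were above 1.5-fold (2.99% of all probes), with a median of 0.24. Below 0.75-fold there was 1 (8.18% of all probes).

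In the fit on pairs 1 gene of the list passed at 24 h. This was *Pde7b*, a phosphodiesterase that breaks down cyclic AMP, which was lower by -0.90 ± 0.11 (SE, n = 2 pairs, adjusted p = 0.0448, limma). Its differences were -0.99 in the saline pair and -0.80 in the PACAP38 pair, below 0 in all 4 channels. With the array block its adjusted p was 0.625.

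*Gpr6*, a receptor of the indirect pathway, had log2 differences of -1.01 in the saline pair and -0.41 in the PACAP38 pair at 24 h (adjusted p = 0.154, limma). *Chrm4*, the M4 muscarinic receptor, had -0.60 and -0.80 (adjusted p = 0.191, limma). The highest 2 of the list at 24 h, *Drd3* and *Oprd1*, were not above background in every pool.

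At 6 h, 8 of the 39 genes passed as higher and 8 as lower, where 48.6% of all probes passed. The lowest were *Isl1* (-1.43), *Foxp2* (-1.12), *Foxp1* (-0.95) and *Pde7b* (-0.93), of which the first 3 encode transcription factors. The highest were *Oprm1* (1.90), the mu opioid receptor, and *Chrm4* (1.102). With the array block none of these 6 passed, with adjusted p between 0.0682 and 0.127, and *Oprm1* was not above background in every pool. Without the label 2 arrays none of the 6 passed either, with adjusted p between 0.0762 and 0.523. *Isl1* was then -0.77, *Foxp2* -0.31, *Foxp1* -0.15, *Pde7b* -0.21, *Oprm1* 0.23 and *Chrm4* 0.39. With normexp, loess and Aquantile *Oprm1* was 0.33 and *Chrm4* 0.0823, and the latter did not pass (adjusted p = 0.236, limma).

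The pattern of the 9 genes over the 8 pools, centred within each time, was lowest in the PMCAO pool with saline at 24 h, at -0.31, and 0.19 and 0.15 in the sham pools of 24 h. The 5 gene symbols most like it, among the candidates above background in all channels, were *AK141783* (r = 0.99), *Ap3m2* (r = 0.98), *Abca9* (r = 0.98), *Crk* (r = 0.98) and *Myom3* (r = 0.98). These are Pearson correlations over 8 pools that share arrays and slides, given as a description.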

How the data were processed

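RNA of the ipsilateral hemisphere was measured on 8 two-colour Agilent arrays, 2 for each of 4 comparisons of PACAP38 with saline, with the same pooled RNA of 3 mice (900 ng per labeling) and the dyes exchanged. By the labels the 2 arrays of a comparison are pools 1 and 2, but by the methods they hold one RNA labeled in both orientations, and they were counted as 1 replicate. The authors deposited the output of Feature Extraction (version 9.5.3.1 per the submitters' processing notes, 9.5.1.1 per the file headers at 6 h). The log10 ratio of Cy5 over Cy3 was deposited after that software's correction of background and dye. The intensity columns were deposited as the mean, background and processed signal of each spot, beside flags for outliers and background. A table of the ratio of Cy5 over Cy3 was deposited as well, in which arrays with PACAP38 in Cy3 carry scores, the ratio with a minus sign; it was used as an alternative. Copies of 3 files held identical values and were not used.

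Control spots and outlier spots were left out and spots of a probe were averaged. PACAP38 over saline was the log2 ratio, with the sign turned where PACAP38 was in Cy3, averaged over the dye swap. PMCAO over sham was the difference of log2 processed signals of one dye between 2 arrays of one slide, each channel first set against its 75th percentile over all non-control probes. An earlier run took this percentile over probes without outlier spots; the present reading was chosen after its results had been seen, and the earlier one is kept as an alternative. The 4 pair values, and the 4 dye-swap means, were fitted with limma 3.58.1 in R 4.3.3 over all probes with a value in every pair, with Benjamini-Hochberg adjustment over all probes and a threshold of 0.05. Within a comparison the thresholds were above 1.5-fold and below 0.75-fold, with no test. The number of arrays limits the precision.

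The fits were tested on simulated data made from the spread of the fits, with pairs taken as independent and 50 probes changed at each size, so the shares recovered do not cover the arrays that pairs share (array pair correlation 0.596). At 24 h the fit on 40508 probes recovered 54% of changes of 1 log2 unit and 96% of changes of 2. For the mean of the 4 comparisons, on 40668 probes, 66% and 92% were recovered.

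The text names every member probe, summarises a gene by its brightest probe, and names from the list of other medium spiny neuron genes the 4 lowest and 2 highest at each time, the 5 genes of most similar pattern over the pools, and at most 3 genes of a marker list. One gene that this rule takes is not reported here. The members, the lists and the tests were chosen with earlier results of these data known. Alternatives were normexp (offset 50) with loess, median or quantile scaling, single dyes or arrays, filters on dim probes, outlier spots kept, an intensity trend, leaving out each pair or comparison, 8 pool values, a replicate block and gene means. The array block, the 6 h fits without the label 1 or label 2 arrays and the fit of 24 h alone were added after the data had been seen.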

Additional observations from a re-analysis of the deposited data

Results flagged for a closer look

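For 2 probes above background the difference between PMCAO and sham was not the same at 6 h and 24 h by the test of the 2 times (limma, 24 h minus 6 h). The second probe of *Adora2a* gave -1.28 on the log2 scale (adjusted p = 0.0157), and the second probe of *Gng7* gave -1.11 (adjusted p = 0.0167). With the pair of arrays as a random block the adjusted p was 0.374 and 0.37. Without the label 2 arrays of 6 h the values were -0.63 and -0.83, and neither passed. A dim *Tac1* probe passed the same test with 1.48 (adjusted p = 0.0172) and gave -0.40 without the label 2 arrays of 6 h, but it was not above background in every pool, so no direction is read from it.

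For PACAP38 over saline at 6 h, both arrays of sham and both arrays of PMCAO lay on opposite sides of 0 for 2 probes. This difference was not tested at 6 h alone. The share of all probes with this pattern is not given, so the count is a description only. The PMCAO ratio minus the sham ratio was -0.83 for *Ppp1r1b* and -0.29 for the brighter *Gng7* probe. For the latter the sham ratio on the label 2 array was 0.02, close to 0.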

How the results depend on the processing

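The count of member probes called at 6 h (5 of 14) was 8 with median scaling and 0 with the Cy3 channels alone, the Cy5 channels alone, the array block or without the label 2 arrays. It was 4 to 5 when 1 pair was left out. At 24 h (0 of 14) it was 2 with normexp, loess and Aquantile and 6 with the 24 h arrays alone, and 0 when any pair was left out. With the label number as a replicate block 3 members were called at 24 h, while the numbers mark only the dye orientation and pair no mice. For the difference between the times (3 of 14) it was 5 with normexp or with an intensity trend, 7 without the label 1 arrays of 6 h, 1 with gene means, and 0 with either dye alone, the array block or without the label 2 arrays, with 2 to 4 when 1 pair was left out. Over all probes, calls at 6 h went from 13662 higher and 6030 lower to 6753 and 10457 with the percentile over probes without outlier spots, and to 76 and 9 without the label 2 arrays. At 24 h 584 higher and 252 lower became 3343 and 3570 with the 24 h arrays alone. For PACAP38 over saline no setting called a member in the mean or in the difference between PMCAO and sham. Probes below 0.75-fold in the PACAP38 pair at 24 h (0) were 4 with median scaling and 3 with Cy3 alone. Probes past either fold were 1 in sham at 6 h with the deposited table of ratios (0 before). In PMCAO at 6 h (1) there were 0 with normexp and loess and 0 with 1.5-fold either way. In PMCAO at 24 h (4) there was 1 with normexp and loess and 2 with gene means. With 1 array left out these counts ranged from 0 to 1 in sham at 6 h, were 2 in PMCAO at 6 h, 3 to 4 in sham at 24 h and 2 to 6 in PMCAO at 24 h.

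Signs turned for members near 0 and also for members further from it. The latter include *Ppp1r1b* (1.28 at 6 h in the fit on pairs), *Pdyn* (-0.44) and a dim *Tac1* probe (-1.22). Of these, *Ppp1r1b* and the *Tac1* probe were called in that fit. At 6 h *Drd1a* was -0.15 with median scaling, -0.26 with the percentile over probes without outlier spots and -0.63 without the label 2 arrays. In the same order the second *Drd2* probe was -0.16, -0.27 and -0.28, and the brighter *Gng7* probe -0.0166, -0.12 and -0.24. The second *Drd2* probe was also -0.0163 with normexp, -0.12 with quantile normalization, -0.18 as a gene mean and -0.0907 to 0.30 when 1 pair was left out. *Rgs9* was -0.16 with normexp, -0.15 with median scaling, -0.38 with outlier spots kept, -0.00087 with the percentile over probes without outlier spots and -0.14 to 0.21 when 1 pair was left out. *Adora2a* was 0.0725 without the label 1 arrays and 0.31 as a gene mean, *Pdyn* 0.049 with normexp, and without the label 2 arrays *Ppp1r1b* was -0.13 and the dim *Tac1* probe 0.65, with -0.40 for its difference between the times. At 24 h *Tac1* was 0.0733 as a gene mean, *Ppp1r1b* -0.0113 with Cy3 alone and *Oprd1* -0.0088 with normexp. When 1 pair was left out at 24 h, *Pdyn* ranged from -0.30 to 0.0861, *Rasd2* from -0.30 to 0.084 and *Oprd1* from -0.19 to 0.92. The cause was not tested. Signal over background left the 2 dim *Tac1* probes with no level.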
